A study of Rattus norvegicus with 6 samples.

Results

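The protocadherins, the largest family of cadherin-type adhesion proteins, were examined in hippocampal RNA of rats exposed to loud noise. Members were the genes whose array row carried 1 symbol beginning with Pcdh, each read from its brightest row. This gave 34 of the 20155 genes with a symbol of their own. They comprised 18 genes of the beta cluster, 4 of the gamma cluster and 12 non-clustered genes. No row named a single alpha cluster gene. One row carried 7 alpha symbols together and another carried 11 gamma symbols, and both are described apart from the members.

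Female Sprague-Dawley rats (strain SD) of postnatal day 21 formed both groups. The noise group heard white noise of 2 to 20 kHz at a level of 115 dB SPL, 4 hours daily over 3 days, and the control group stayed in an identical chamber without it. All rats of both groups had a hearing test under anesthesia after the last exposure. The hippocampal tissue was taken some hours after that test, around the dorsal CA3 field and the adjoining CA2 and dentate gyrus. Each group had 3 Affymetrix Rat Gene 2.0 ST arrays, each with RNA pooled from 2 rats, so that p-values measure the spread between pools. Array numbers follow the labels, and values are always given in the order 1, 2 and 6 for control and 2, 3 and 4 for noise. In pooled tissue, fewer cells of a type and less RNA per cell cannot be told apart.

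Protocadherins are transmembrane proteins whose extracellular cadherin repeats bind the same protein on a neighboring cell. The clustered genes lie in tandem arrays in which every variable exon has its own promoter, and each neuron uses a small, largely random choice of them, which gives its neurites a surface identity. Alpha and gamma exons are spliced to shared constant exons, whereas a beta gene is a single coding exon. The CTCF protein and the cohesin ring bring a chosen promoter to a distant enhancer. Non-clustered protocadherins are separate genes with roles in neurite growth, synapse maintenance and, in other tissues, cell junctions.

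A short element shared by most beta promoter windows is shown first. Promoter windows of 300 bases, from 250 before to 50 after each RefSeq gene start, were taken from RefSeq on build GRCr8. A window was found for 15 of the 18 beta genes, 1 of the 4 gamma genes and 11 of the 12 non-clustered genes. The longest word shared by the most beta windows was GGTGGCGCTG, searched after the windows had been read. It contains the CGCT core of the element that precedes clustered exons in mouse and human. On either strand these letters were in 14 of the 15 beta windows, in none of the other members' windows and in 0.221% of all 33469 windows, the beta ones included. The word was picked for its count in the beta windows, so its share there is no test of enrichment. The 5 windows below, of 50 bases on the plus strand, belong to the genes among these 14 with the 3 highest and the 2 lowest differences, with the element in capitals.
Pcdhb12, chr18:29413638-29413687: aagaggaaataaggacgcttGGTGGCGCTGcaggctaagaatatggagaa
Pcdhb20, chr18:29485800-29485849: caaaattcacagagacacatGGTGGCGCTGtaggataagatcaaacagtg
Pcdhb5, chr18:29302394-29302443: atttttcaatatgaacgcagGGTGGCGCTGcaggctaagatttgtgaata
Pcdhb21, chr18:29492139-29492188: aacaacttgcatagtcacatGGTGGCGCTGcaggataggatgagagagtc
Pcdhb4, chr18:29292201-29292250: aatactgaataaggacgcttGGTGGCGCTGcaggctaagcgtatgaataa
Genes with the element had differences of either sign, and none was called at an unadjusted p of 0.05 by limma, described below. Of the 14, 6 had a positive and 8 a negative log2 fold change, from -0.39 to 0.42. Among the windows of these 14, those of Pcdhb6 and Pcdhb8 are most alike, with 47 of 50 bases identical. Their genes had log2 fold changes of 0.003 and 0.04. The printed windows of Pcdhb12 and Pcdhb4 are identical at 42 of 50 bases, and these genes had log2 fold changes of 0.42 and -0.29. Whether likeness of the windows goes with the differences was not tested. A match to these letters is a description and not a test of binding.

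The counts of protocadherins called did not stand apart from the background, and no member had a difference of 1.5-fold. Values were deposited as log2 signal, and each row was compared by limma, which fits a linear model to every row and moderates its variance with that of all 29489 rows. Differences are noise minus control on the log2 scale throughout. The study called a gene at an unadjusted p up to 0.05 together with 1.5-fold or more, and by this rule none of the 34 genes was higher or lower, against 0.288% and 0.595% of all genes. The methods' t-test also placed none there, against 0.179% and 0.362% of all genes. At an unadjusted p of 0.05 alone, limma called 1 gene higher and none lower, against 4.32% and 4.91% of all genes. The methods' t-test called 1 gene higher, again Pcdh12, and 2 lower, Pcdh9 and Pcdh10. These are 2.94% and 5.88% of the members, against 4.38% and 4.89% of all genes, so neither count stands apart from the background. No member passed an adjusted p of 0.05, which 0.0149% of all genes did, and the lowest adjusted p among the members was 0.45 with limma and 0.44 with the methods' t-test.

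The median log2 fold change of the 34 genes was -0.04, against 0.001 over all genes. Of the members, 22 had a negative and 12 a positive difference, while 49.6% of all genes had a negative one. The middle part of the members, from the lower to the upper quartile, ran from -0.15 to 0.04, and that of all genes from -0.11 to 0.11. For 27 members (79.4%) the whole 95% interval of the difference lay inside a 1.5-fold change in either direction, as it did for 82% of all genes. The half-width of this interval had a median of 0.28 over the members and ranged from 0.20 to 0.65. A change of 1.5-fold was thus outside the interval for most members.

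**Figure D1:**
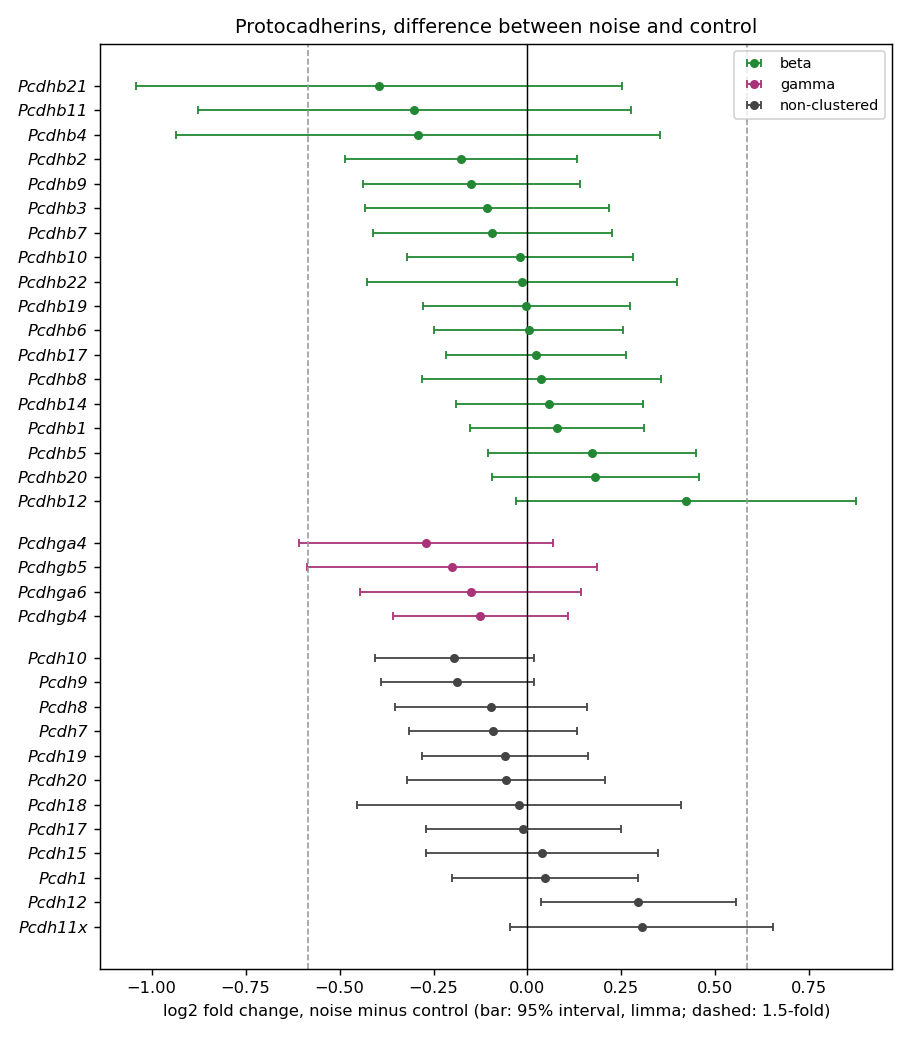
Log2 fold change, noise minus control, of the 34 protocadherins by group, with 95% intervals from limma over 3 arrays per group and dashed lines at a 1.5-fold change. Only the interval of Pcdh12, from 0.04 to 0.55, leaves out 0, and those of 27 genes lie wholly between the dashed lines.

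Among the non-clustered genes, Pcdh12 was higher in the noise group, and Pcdh9 and Pcdh10 were lower on every noise array without passing the limma threshold. Pcdh12 encodes an adhesion protein of endothelial cells, also called VE-cadherin-2. The control levels were 4.51, 4.44 and 4.55 and the noise levels 4.90, 4.87 and 4.61, in the order given above. The groups did not overlap, although noise array 4 lay close to the highest control array. The log2 fold change was 0.29 (standard error 0.11, 95% interval 0.04 to 0.55), which is 1.23-fold, with an unadjusted p of 0.031 and an adjusted p of 0.45 from limma. All of its values were below the array median of 5.05, where signal can contain background. The p was above 0.05 without control array 1 (0.066), control array 2 (0.087), noise array 2 (0.096) or noise array 3 (0.083). Non-overlap in this direction was found for 8.37% of all genes, and Pcdh12 was the only member.

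Markers of endothelial cells were not higher in the noise group. Of 8 listed markers, 5 matched a row, of which 2 (40%) were lower and none was higher at an unadjusted p of 0.05. Of all genes, 4.91% were lower and 4.32% higher. The mean of the 5 ranged from 6.38 to 6.47 on the control arrays and from 6.15 to 6.30 on the noise arrays. Emcn, the endothelial sialomucin endomucin, had a log2 fold change of -0.49 (limma adjusted p = 0.33), and Cdh5, the VE-cadherin of endothelial junctions, one of -0.25 (limma adjusted p = 0.48). Cldn5, a tight junction protein of brain vessels, had 0.08 and Flt1, a receptor for vascular growth factor, had -0.10. Tek, a receptor of vessel maturation, had -0.21.

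**Figure D2:**
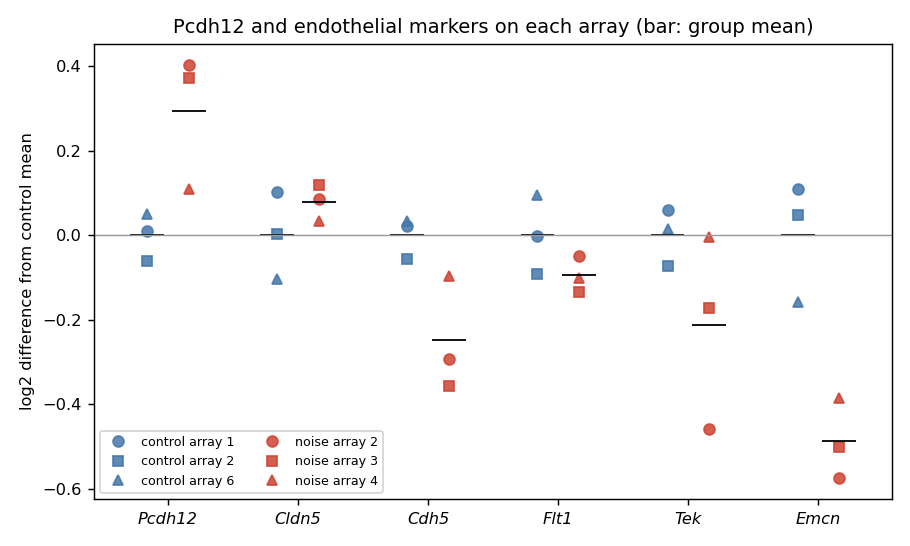
Difference from the control mean, in log2 units, of Pcdh12 and the 5 matched endothelial markers, with a point for each array and a bar for each group mean. The 3 noise points of Pcdh12 lie above its control points, while those of Cdh5 and Emcn lie below theirs.

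The delta1 genes Pcdh1, Pcdh7, Pcdh9 and Pcdh11x share a longer set of cadherin repeats. Pcdh9, which is widely expressed in forebrain neurons, had log2 levels of 8.40, 8.39 and 8.44 (control 1, 2 and 6) and of 8.17, 8.28 and 8.22 (noise 2, 3 and 4). The control arrays, with an SD of 0.02 (n = 3), all lay above the noise arrays. Its log2 fold change was -0.19 (standard error 0.09, 95% interval -0.39 to 0.02, limma adjusted p = 0.52), a 1.14-fold difference. Pcdh11x, an X-linked gene, read 5.88, 6.05 and 5.79 in controls against 6.07, 6.51 and 6.04 after noise. Noise array 3 stood above the other arrays, and noise array 4 was level with control array 2. The log2 fold change of Pcdh11x was 0.30 (standard error 0.15, limma adjusted p = 0.54), or 0.15 without noise array 3. Pcdh1, which also serves in epithelial layers, had a log2 fold change of 0.05 (95% interval -0.20 to 0.29), and Pcdh7, which can bind the SET protein, had one of -0.09 (95% interval -0.31 to 0.13).

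The delta2 genes Pcdh8, Pcdh10, Pcdh17, Pcdh18 and Pcdh19 include the members best known from synapses. Pcdh10, which takes part in the removal of excitatory synapses in mouse neurons, had log2 levels of 8.32, 8.31 and 8.43 (control 1, 2 and 6) and of 8.15, 8.20 and 8.11 (noise 2, 3 and 4). The groups did not overlap, and the gap between the lowest control and the highest noise array was small. Its log2 fold change was -0.19 (standard error 0.09, 95% interval -0.41 to 0.02, limma adjusted p = 0.52). Non-overlap in this direction held for 2 of the 34 members and for 8.87% of all genes. Markers of thalamus and habenula were also lower, as were those of choroid plexus, given below. The mean of the thalamus and habenula markers was 6.29, 6.15 and 5.71 in controls and 5.26, 5.62 and 5.40 after noise. Control array 6 was the lowest control array for that mean but the highest for Pcdh9 and Pcdh10. The part of these tissues in the 2 genes was not tested.

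Pcdh8, known in rat neurons as arcadlin, is induced by synaptic activity and promotes the internalization of N-cadherin. It had log2 levels of 5.61, 5.84 and 5.83 (control 1, 2 and 6) and of 5.78, 5.63 and 5.58 (noise 2, 3 and 4). The groups overlapped, and control array 1 was among the low values. The log2 fold change was -0.10 (95% interval -0.35 to 0.16, limma adjusted p = 0.80), so that a rise of 1.5-fold lay outside the interval. Tissue was taken at a single time some hours after the noise, so an earlier and brief rise was not measured. Pcdh17, which organizes presynaptic vesicles in mouse basal ganglia, had a mean of 8.22 ± 0.17 (SD, n = 3) in the control group and 8.20 ± 0.03 (SD, n = 3) in the noise group. Pcdh19, an X-linked gene whose variants cause an epilepsy in humans, was at 7.76 ± 0.02 (SD, n = 3) against 7.70 ± 0.10 (SD, n = 3), with a log2 fold change of -0.06 (95% interval -0.28 to 0.16). Pcdh18 varied more between arrays, from 5.32 on control array 6 to 5.93 on noise array 3, and the groups overlapped.

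The remaining non-clustered genes were Pcdh15 and Pcdh20. Pcdh15 forms the tip links of the hair cell bundles that noise can damage in the cochlea, and in these hippocampal samples it had a log2 fold change of 0.04 (95% interval -0.27 to 0.35). The control levels were 5.89, 5.53 and 5.44 and the noise levels 5.72, 5.61 and 5.65, in the order given above. All noise arrays fell between the highest and the lowest control array. Pcdh20, which directs the position of cortical neurons in mice, had a log2 fold change of -0.06 (95% interval -0.32 to 0.21). Over the 12 non-clustered genes the median difference was -0.04, with 4 positive and 8 negative.

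**Figure D3:**
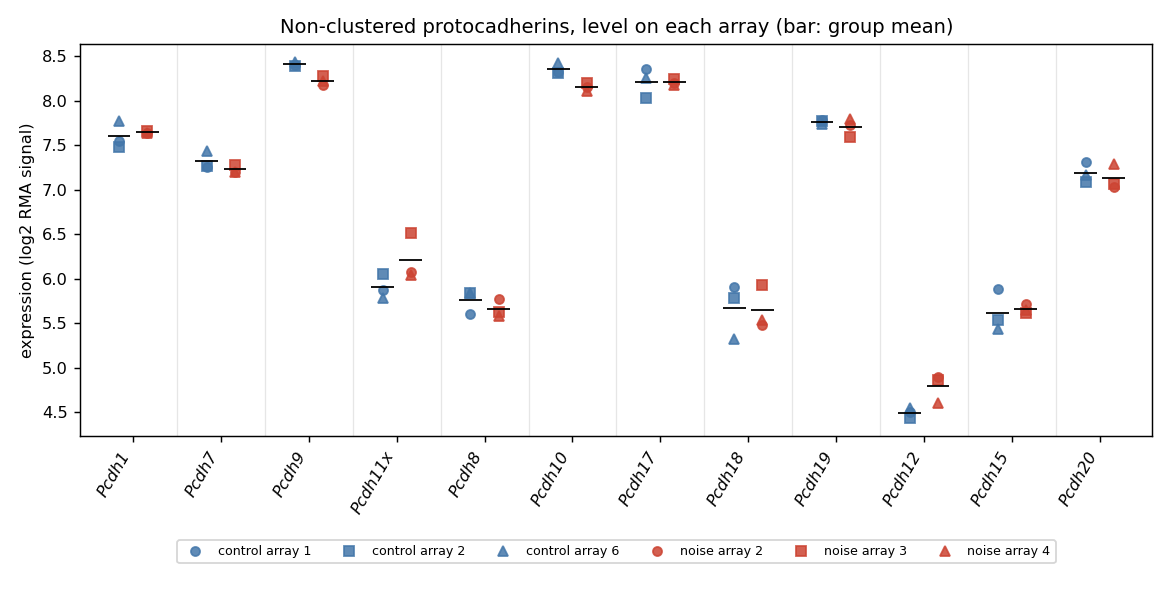
Log2 signal of the 12 non-clustered protocadherins on each of the 6 arrays, with control arrays in blue, noise arrays in red and a bar at each group mean. The groups separate for Pcdh9, Pcdh10 and Pcdh12 and overlap for the other 9 genes, and levels of different genes are not comparable because their probes differ.

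The beta cluster showed no shared direction. Of its 18 genes, 8 had a positive and 10 a negative difference, the median log2 fold change was -0.01, and none passed an unadjusted p of 0.05 with limma. The median level over the 18 genes was 5.74, 5.62 and 5.60 in controls against 5.66, 5.71 and 5.76 after noise, so that the groups overlapped. For 14 genes the 95% interval stayed inside a 1.5-fold change. The 4 others were Pcdhb4, Pcdhb11, Pcdhb12 and Pcdhb21, whose arrays differed most among themselves or between groups.

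Pcdhb12 had the highest difference of all members. It had log2 levels of 5.66, 5.10 and 5.12 (control 1, 2 and 6) and of 5.59, 6.02 and 5.52 (noise 2, 3 and 4). Control array 1 lay within the noise values, while control arrays 2 and 6 lay below all of them. The log2 fold change was 0.42 (standard error 0.19, 95% interval -0.03 to 0.88, limma adjusted p = 0.52), or 1.34-fold. Without control array 1 it was 0.61 and passed the study's thresholds, while without noise array 3 it was 0.27. A second, dimmer row of Pcdhb12 had a log2 fold change of 0.17 (95% interval -0.13 to 0.48). RefSeq lists Pcdhb13 among the older names of this gene, and which copy each row reads was not checked.

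Pcdhb21 had the lowest difference and rested on unequal noise arrays. Control 1, 2 and 6 read 5.35, 5.41 and 5.23, against 5.60, 4.38 and 4.82 for noise 2, 3 and 4. Noise array 2 was above every control array, and noise arrays 3 and 4 were below them all. The log2 fold change was -0.39 (standard error 0.28, limma adjusted p = 0.66). Without noise array 2 it was -0.73 and passed the study's thresholds, and without noise array 3 it was -0.12. The SD of the noise group was 0.62, the widest of any beta gene, and that of the control group was 0.09.

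Pcdhb4 and Pcdhb11 also varied widely, with log2 fold changes of -0.29 and -0.30, standard errors of 0.28 and 0.25 and noise SDs of 0.55 and 0.45 (n = 3). Both were below the array median on all arrays. Pcdhb5 was even in the control group, at 5.52, 5.52 and 5.49 on arrays 1, 2 and 6, and reached 5.90 on noise array 4 while noise array 2 stayed at 5.51. Pcdhb20 was at 5.83, 5.72 and 5.75 in the control group and reached 6.16 on noise array 3, with 5.81 and 5.87 on noise arrays 2 and 4. The noise group thus held the highest array for both genes, but a different array in each. Pcdhb19 and Pcdhb17 had log2 fold changes of -0.003 and 0.02, and a second row of Pcdhb17 had -0.13. Pcdhb3 was dim, at 3.13 ± 0.10 (SD, n = 3) in the control group and 3.02 ± 0.24 (SD, n = 3) in the noise group.

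All 4 gamma genes had lower means in the noise group, and none passed an unadjusted p of 0.05. These genes encode isoforms of the A and B subfamilies, and the gamma cluster as a whole is needed for normal branching of dendrites in mice. On noise arrays 2 and 3 all 4 genes were below every control array, while on noise array 4 all 4 lay within the control range. The margin was small for Pcdhgb4, at 5.43 on noise array 2 against 5.44 on control array 6. The share of all genes with such a pattern on single arrays was not counted, so it is given as a description only. Pcdhga4 had log2 levels of 6.57, 6.52 and 6.64 (control 1, 2 and 6) and of 6.04, 6.31 and 6.58 (noise 2, 3 and 4). Its log2 fold change was -0.27 (standard error 0.14, limma adjusted p = 0.56), or -0.41 without noise array 4, where it passed an unadjusted p of 0.05, and -0.13 without noise array 2. Pcdhgb5 read 6.38, 6.45 and 6.62 in controls against 6.33, 5.95 and 6.57 after noise. Here noise array 3 was the lowest, with a log2 fold change of -0.20 (limma adjusted p = 0.71), which was -0.03 without that array and -0.34 without noise array 4.

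Pcdhga6 had log2 levels of 7.61, 7.50 and 7.71 (control 1, 2 and 6) and of 7.28, 7.42 and 7.67 (noise 2, 3 and 4), with a log2 fold change of -0.15 (limma adjusted p = 0.71). Without noise array 2 it was -0.06, without control array 6 -0.10, and without noise array 4 -0.26. Pcdhgb4 was at 5.56, 5.61 and 5.44 against 5.43, 5.31 and 5.49, with a log2 fold change of -0.13 (limma adjusted p = 0.70). The 4 genes had a median difference of -0.18, which was -0.13, -0.10 and -0.30 without noise array 2, 3 and 4 in turn. Whether these rows share probes was not examined, and they are not replicates of each other. The row with 11 gamma symbols had a log2 fold change of -0.06 (95% interval -0.28 to 0.16), with 6.61, 6.57 and 6.72 in controls against 6.51, 6.61 and 6.60 after noise. Only noise array 2 was below the control arrays there.

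The row with 7 alpha symbols had log2 levels of 5.19, 5.25 and 5.19 (control 1, 2 and 6) and of 5.18, 5.09 and 5.13 (noise 2, 3 and 4). Every noise array was below every control array, as for 8.87% of all genes, and noise array 2 differed from the lowest control array by little. The log2 fold change was -0.08 (95% interval -0.28 to 0.12, limma adjusted p = 0.79). The row joins several genes, so a change in one alpha isoform with an opposite one in another would not be seen.

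**Figure D4:**
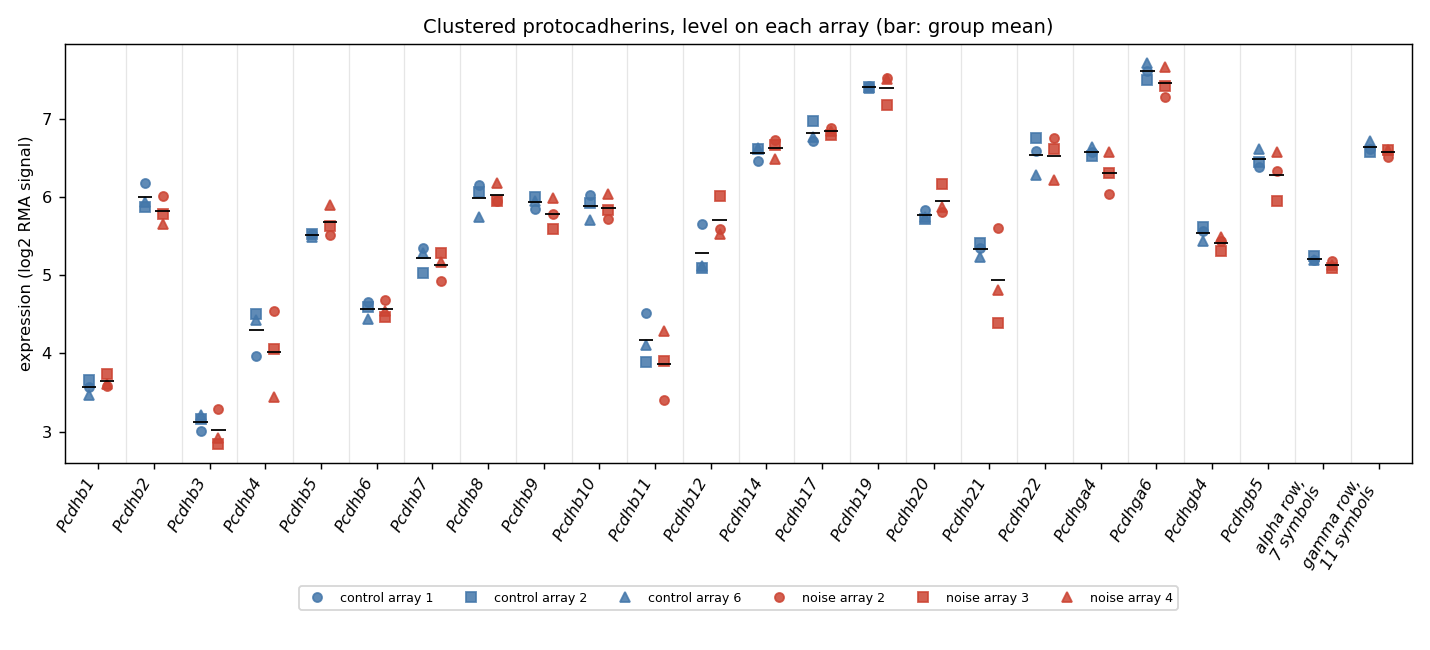
Log2 signal of the 18 beta and 4 gamma protocadherins and of the rows with 7 alpha and 11 gamma symbols on each of the 6 arrays, control in blue and noise in red, with a bar at each group mean. In the gamma genes the triangle of noise array 4 lies with the control points, and the noise points of Pcdhb21 spread from 4.38 to 5.60.

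Of 22 regulators of the cluster that matched a row, 1 was lower and none was higher at an unadjusted p of 0.05, with a median log2 fold change of -0.08. The 1 lower gene is 4.55% of the list, close to the 4.91% of all genes called lower. Ctcf had log2 levels of 8.04, 8.03 and 7.98 (control 1, 2 and 6) and of 7.96, 7.94 and 7.97 (noise 2, 3 and 4). All noise arrays were slightly below the control arrays, with a log2 fold change of -0.06 (95% interval -0.26 to 0.14). Non-overlap in this direction held for 8.87% of all genes. Another listed regulator, Mau2, went the other way, with a log2 fold change of 0.16 (limma adjusted p = 0.57). Its noise arrays were all above its control arrays, as for 8.37% of all genes. Rad21, a subunit of cohesin, had -0.21 (limma adjusted p = 0.50). Dnmt3b, a DNA methyltransferase that sets methylation at clustered promoters in mouse embryos, had -0.23 (limma adjusted p = 0.47) and was below the array median on all arrays. The noise arrays of Rad21 and Dnmt3b were, as for Ctcf, all below their control arrays, which held for 8.87% of all genes.

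Of 29 matched partners and effectors of protocadherins, which include the kinases Ptk2 and Ptk2b that gamma proteins inhibit and the WAVE complex that delta2 proteins recruit, 1 (3.45%) was called lower, none higher, and the median was -0.02. The 1 was Adam10, the protease that sheds gamma protocadherin ectodomains, at -0.24 (limma adjusted p = 0.48). Of 34 other cadherins and catenins, 1 (2.94%) was lower, the endothelial Cdh5 given above, and the median was -0.06. Both shares lie below that of all genes and are no result about the lists. Cdh2, the N-cadherin that Pcdh8 binds, had a log2 fold change of -0.01 (95% interval -0.21 to 0.19).

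Across the series, array pairs had a Pearson's r across rows of 0.981 to 0.991. Markers of excitatory neurons averaged 8.98 to 9.13 in controls and 8.98 to 9.08 after noise. Those listed for CA3 and dentate gyrus, with the CA1 marker Wfs1 among them, averaged 6.77 to 6.88 and 6.73 to 6.89. No member of either list was called. The dentate marker Dsp was below the array median on all arrays. Lower levels were called for 11 of 16 choroid plexus markers (68.8%), higher levels for none. The list mean read 7.29, 6.61 and 5.52 in controls and between 4.86 and 5.12 after noise. Of 11 markers of thalamus and habenula, 6 (54.5%) were lower, against 4.91% of all genes called lower and 4.32% called higher. Of 8 markers each of meninges, interneurons, oligodendrocytes and microglia, 1 (12.5%) was lower, 1 (12.5%) higher, none and 1 (12.5%) higher. Of 7 astrocyte markers none was called. The lists were chosen with earlier results known, and Kl, Slc4a5, Chrna3 and Igf2 on them had been reported as lower by the study. Their shares are therefore no independent test. The part of these cell types in the protocadherin values was not tested.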

How the data were processed

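RNA was measured on 6 arrays, 3 per group. The deposited values are log2 signals, which the authors obtained in GeneSpring GX by Robust Multi-Array Average (RMA), and they entered the fits as they are. Columns with the authors' own group means, fold changes and p-values were not used, and neither were the annotation columns to their right. The genome build of the array annotation is not given in the sources used here. All 29489 rows were fitted with limma 3.58.1 in R 4.3.3, with group as the only term (prior degrees of freedom 3.47), without a filter, and the Benjamini-Hochberg adjustment ran over all rows. The fit was tested on simulated data. Counts over all genes refer to the 20155 genes with a symbol of their own, read from the brightest row.

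Of 38 protocadherin rows, 36 carried 1 symbol. Of the 34 members, 31 have their symbol in RefSeq (GRCr8). Pcdhga6, Pcdhgb4 and Pcdhgb5 do not, and there Pcdhgb4 is listed as a synonym of Pcdhga7, and Pcdhgb5 as one of Pcdhga8 and Pcdhgb8. Similar copies can share probes, and probe sequences were not used here. Of 181 entries in the other gene lists, 173 matched by symbol. The members and lists were chosen with earlier results of these data known. Named were all non-clustered genes, clustered genes called or with non-overlapping groups, and in each cluster the 2 brightest, the dimmest and the 2 with the largest differences. Pcdhb4, Pcdhb5, Pcdhb6, Pcdhb8, Pcdhb11 and Pcdhb20 were added after their values had been seen, as were Ctcf, Rad21, Mau2, Cdh2, Cldn5, Flt1, Tek, Wfs1 and Dsp. Of the other lists, genes past an unadjusted p of 0.05 were named for the regulators, partners, cadherins and endothelium, and the remaining marker lists are given by counts. The planned median over alpha genes is the value of the only alpha row, which carries 7 symbols. An exact permutation test of 3 arrays against 3 cannot go below a p of 0.1. The number of arrays limits the precision. Other settings tried were the values of the series matrix, a second quantile normalization, centring on the median, an intensity trend, array weights, a filter on dim rows, omission of each array, averaging of rows, rows with several symbols, the methods' t-test and Welch's version.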

Additional observations from a re-analysis of the deposited data

How the results depend on the processing

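No paired analysis was run, because the groups were different rats and the labels name no pairs between them. The count of members at an unadjusted p of 0.05 was 2 lower with an intensity trend, over the rows at or above the median level, with the methods' t-test and with Welch's version, in each case Pcdh9 and Pcdh10. All genes were called lower at 5.87%, 7.23%, 4.89% and 3.63% under these settings, so 2 of 34, or 2 of the 28 brighter members, is near the background. With Welch's version 0 were higher, against 3.13% of all genes. With an intensity trend and over the brighter rows the 1 higher gene was Pcdhb12 in place of Pcdh12. These settings called 4.48% and 5.06% of all genes higher. With each array left out in turn, the counts ran from 0 to 1 in each direction, both at the study's thresholds and at an unadjusted p of 0.05. Those at the study's thresholds were Pcdhb12 without control array 1 and Pcdhb21 without noise array 2, and the one lower at p of 0.05 without noise array 4 was Pcdhga4. At the study's thresholds, 0.452% of all genes were higher without control array 1 and 0.576% lower without noise array 2. Without noise array 4, 5.71% of all genes were lower at an unadjusted p of 0.05. A fit without control 1 and control 2 was added with the values known. It leaves 1 control array, assumed to vary like the noise arrays, so its counts are not given here. It also drops the control array that overlapped the noise values of Pcdhb12. The cause of the changes between settings was not tested.

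Among genes close to 0, the sign changed when single arrays were left out, with log2 fold changes from -0.0143 to 0.13 for Pcdh1, -0.0507 to 0.17 for Pcdh15, -0.10 to 0.0615 for Pcdh17, -0.19 to 0.10 for Pcdh18, -0.14 to 0.0016 for Pcdh20, -0.0296 to 0.10 for Pcdhb17 and -0.0622 to 0.11 for Pcdhb19. Pcdhb19 had 0.0246 with array weights, and Pcdhb17 had -0.0556 as the mean of its rows. With single arrays left out, the median difference ran from -0.0635 to 0.0117 for beta, -0.30 to -0.10 for gamma and -0.0577 to 0.0125 for non-clustered genes, so that the beta and non-clustered medians had no stable sign. With array weights the beta median was 0.0077. The series matrix, renewed quantile normalization and median centring changed no count of members.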
